A study of Mus musculus with 12 samples.

Results

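The 9 genes described here are transcribed when STAT factors are active, or are widely used as readouts of that signalling. They are the suppressors of cytokine signalling Cish, Socs1, Socs2 and Socs3, the PIM kinases Pim1, Pim2 and Pim3, the cytokine oncostatin M (Osm) and the repressor Bcl6. STAT5 can repress Bcl6, so counts and medians over the 9 genes can mix directions. The genes were chosen by gene symbol from a table of 24411 symbols, and all 9 were present and had enough reads to be tested. Total RNA of mouse leukaemia cells was sequenced in 12 libraries, with 3 libraries in each of 4 treatment groups. The cells were BALB/c bone marrow cells carrying mutant CSF3R, the receptor for granulocyte colony-stimulating factor, and mutant CEBPA, a transcription factor of granulocyte development, both introduced by retrovirus. Every group carried both mutant genes, so no group lacked the oncogenic receptor. Treatment lasted 24 h: a first group received the solvent DMSO, another ruxolitinib at 50 nM, another GSK-LSD1 at 2 nM, and the last both drugs at the same doses (the combination). Ruxolitinib inhibits the kinases JAK1 and JAK2, and GSK-LSD1 inhibits the histone demethylase LSD1. The labels do not say whether the libraries of a group came from separate cultures or how many primary mice were used, so p-values measure only the spread between these libraries.

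When a cytokine receptor is engaged, JAK kinases phosphorylate STAT3 and STAT5, which enter the nucleus and bind the palindrome TTCNNNGAA. CIS (the product of Cish) and the SOCS proteins are among the first genes they switch on. These proteins bind phosphorylated receptors or the kinases and, through a SOCS box, recruit a ubiquitin ligase that ends the signal. PIM kinases are serine/threonine kinases that are active as soon as they are made, so their output follows their transcription, and they favour survival and protein synthesis in blood cancers. Oncostatin M is a cytokine of the interleukin-6 family whose gene is a direct STAT5 target in haematopoietic cells. BCL6 is a transcriptional repressor whose binding sites overlap those of STAT5, and STAT5 is known to repress Bcl6 in several haematopoietic settings.

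The promoters of Bcl6 and Socs1 are shown because Bcl6 had the largest response among the 9 genes, and Socs1 is the other gene whose window held no annotated exon. Each run is the 250 bases before an annotated start on the minus strand of GRCm38.p6, from RefSeq, with matches to the STAT palindrome in capitals. The windows are chr16:23988853-23989102 and chr16:23981284-23981533 for 2 starts of Bcl6, and chr16:10785537-10785786 for Socs1.

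Bcl6, upstream start: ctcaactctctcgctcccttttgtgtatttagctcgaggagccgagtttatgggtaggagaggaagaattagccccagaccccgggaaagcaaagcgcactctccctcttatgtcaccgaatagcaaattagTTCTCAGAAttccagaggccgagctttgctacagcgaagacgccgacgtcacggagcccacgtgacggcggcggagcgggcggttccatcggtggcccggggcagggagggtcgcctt
Bcl6, downstream start: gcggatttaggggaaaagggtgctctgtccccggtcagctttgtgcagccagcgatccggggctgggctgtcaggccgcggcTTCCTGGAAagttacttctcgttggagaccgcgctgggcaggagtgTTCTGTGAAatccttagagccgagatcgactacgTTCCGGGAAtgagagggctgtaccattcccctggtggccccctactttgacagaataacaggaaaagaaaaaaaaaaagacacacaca
Socs1: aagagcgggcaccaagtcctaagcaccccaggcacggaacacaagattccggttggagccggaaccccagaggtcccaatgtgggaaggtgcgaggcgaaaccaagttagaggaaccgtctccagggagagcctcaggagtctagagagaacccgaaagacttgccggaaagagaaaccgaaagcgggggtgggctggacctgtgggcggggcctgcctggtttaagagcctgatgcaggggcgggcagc

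The window of the downstream Bcl6 start held 3 matches, TTCCTGGAA, TTCTGTGAA and TTCCGGGAA, whose first bases lay 168, 122 and 88 bases before the start. The window of the upstream start held TTCTCAGAA at 118 bases. In all, 9 windows were found for 7 of the 9 genes, Socs2 and Osm not among them, and 3 of these windows held the palindrome. The third belonged to Socs3, with TTCTTAGAA at 154 bases before the start. Only 3 of the 9 windows, those of Bcl6 and Socs1, held no annotated exon, and the others overlapped exons of their own gene. The windows of Socs3, Cish and the later Pim1 start lay inside the annotated gene. A match or its absence there does not describe the sequence upstream of the gene. TTCNNNGAA, which reads the same on both strands, occurred in 7.02% of 32851 such windows over all genes. The C/EBP core TTGCNNAA, searched on both strands, occurred in 1 of the 9 windows, that of Pim2, and in 9.56% of all windows. The GFI1 core AAATCAC, also searched on both strands, occurred in none of the 9 and in 2.75% of all windows. A match is a stretch of letters, and binding was not measured.

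Values are normalised read counts, that is, gene counts scaled by the authors with a size factor for every library. Multiples of the smallest step of each library summed to between 8260995 and 8528400, so the libraries were of like depth if these steps are reads. The 7 listed markers of myeloid progenitors were present in all libraries, with a summed value of 10119 to 10683 in DMSO, 12936 to 18068 with ruxolitinib, 10230 to 10545 with GSK-LSD1 and 16855 to 17953 in the combination. Markers of other cell types were partly present. All 5 mast cell and basophil markers had a mean of at least 10, with Cpa3 at 12044 on average, and their sum was 16038 to 17951 in DMSO, 19241 to 20541 with ruxolitinib, 18781 to 20340 with GSK-LSD1 and 17547 to 20381 in the combination. Of 5 macrophage markers 3 had a mean of at least 10 and C1qb was at 0, and their sum was 133 to 175, 129 to 160, 247 to 282 and 291 to 331 in the same order. Of 6 markers of stroma and endothelium 3 had a mean of at least 10 and Cxcl12 and Cdh5 were at 0, with sums of 3229 to 3351, 3195 to 3643, 4043 to 4317 and 4329 to 4377. Most of that sum was Pecam1, at 3368 on average, beside 381 for Pdgfrb and 51.1 for Col1a1. Of 4 NK markers 3 had a mean of at least 10, Gzma among them at 626, and Ncr1 was at 0, with sums of 765 to 814, 695 to 870, 841 to 1161 and 757 to 913. Among erythroid genes Klf1 was at 83.0 on average and the 4 globin genes were at 0. Of 5 megakaryocyte markers 3 had a mean of at least 10, with sums of 1955 to 2078, 2066 to 2353, 1824 to 2046 and 1941 to 2133. Among T cell markers only Lck (83.3) had a mean of at least 10 and Cd4 was at 0, and all 5 B cell markers were below 10, with Ms4a1 and Pax5 at 0. The sums of the macrophage list and of the stromal list, the latter mostly Pecam1, were thus higher in both groups that received GSK-LSD1. The myeloid progenitor sum was above the DMSO range in both groups that received ruxolitinib. Most of that sum was Mpo, at 9099 on average, beside 2176 for Prtn3 and 37.4 for Kit. The NK sum was above the DMSO range with GSK-LSD1 alone and overlapped it in the combination. The mast cell and basophil sum was above the DMSO range with either drug alone. The part of any of these lists in the results on the 9 genes was not tested. In bulk RNA, fewer cells of a type and less RNA per cell cannot be told apart.

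The ruxolitinib and combination libraries differed among themselves in their relation to base composition. Over the 11053 tested genes with a matched transcript, a gene's deviation from its group mean correlated with its GC content at Spearman's rho = 0.430 in ruxolitinib replicate 2 and 0.573 in combination replicate 3. It was -0.403 in ruxolitinib replicate 1, -0.437 in combination replicate 1 and -0.362 in combination replicate 2, while it was 0.266 in GSK-LSD1 replicate 1, -0.226 in GSK-LSD1 replicate 3, and between -0.131 and 0.0883 in the other libraries. The 9 genes had transcripts of 45.4% GC (Socs2) to 61.9% (Pim3), beside a median of 49.7% over tested genes, and 8 of the 9 lay above that median. In ruxolitinib replicate 2, 7 of the 9 genes had their highest value of the 3 ruxolitinib libraries, and in replicate 1, 7 had their lowest. Cish was 19.6% below its ruxolitinib mean in replicate 1 and 17.8% above it in replicate 2. Combination replicate 3 was the highest of its group for 6 genes. Results against DMSO are given with a GC correction, or without ruxolitinib replicate 2 and combination replicate 3 together, where that changed a call or moved a value by over 1.5 times.

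**Figure D1:**
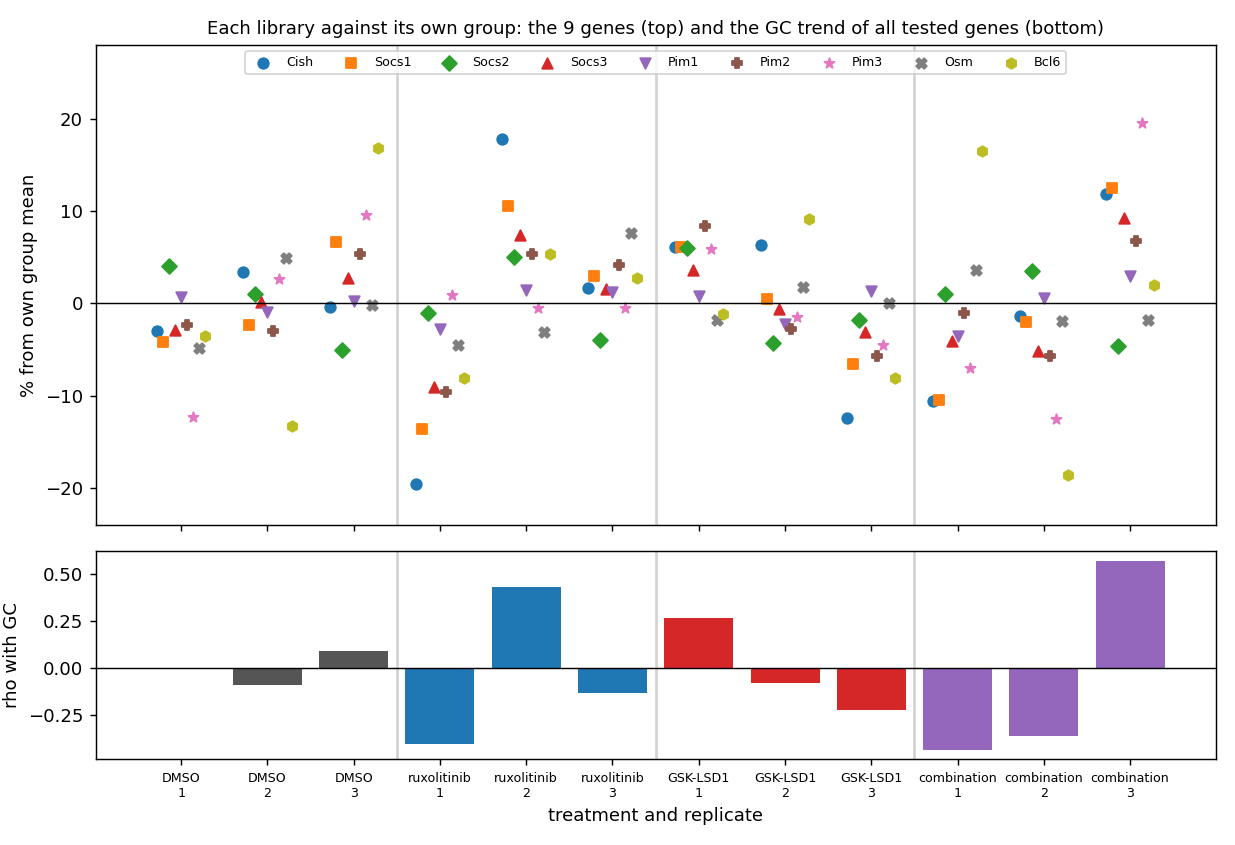
Upper panel: deviation of each of the 9 genes from its own group mean, in percent, for each library. Lower panel: Spearman's rho between the deviation of all tested genes and transcript GC content, with bars coloured by treatment. Ruxolitinib replicates 1 and 2 lie on opposite sides, with Cish at 19.6% below and 17.8% above the group mean, and rho is -0.403 and 0.430.

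Per kilobase of the longest annotated transcript, Pim1 was the most abundant of the 9, at 1662 ± 39.5 normalised reads per kilobase (SD over the 12 libraries). Socs2 followed at 1193 ± 90.4, Socs3 at 827 ± 61.4 and Pim2 at 739 ± 63.9. Osm reached 360 ± 56.1 and Socs1 293 ± 42.8. Pim3 was at 100.2 ± 19.4, Cish at 32.2 ± 4.61 and Bcl6 at 23.5 ± 9.10 normalised reads per kilobase. The ranges over libraries overlapped for 3 neighbouring pairs in this order. Socs3 was still above Pim2 in 12 of 12 libraries, Osm above Socs1 in 11 and Cish above Bcl6 in 11. Pim1 and Pim3 thus lay at opposite ends of the PIM genes, and Socs2 and Cish at opposite ends of the SOCS genes.

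**Figure D2:**
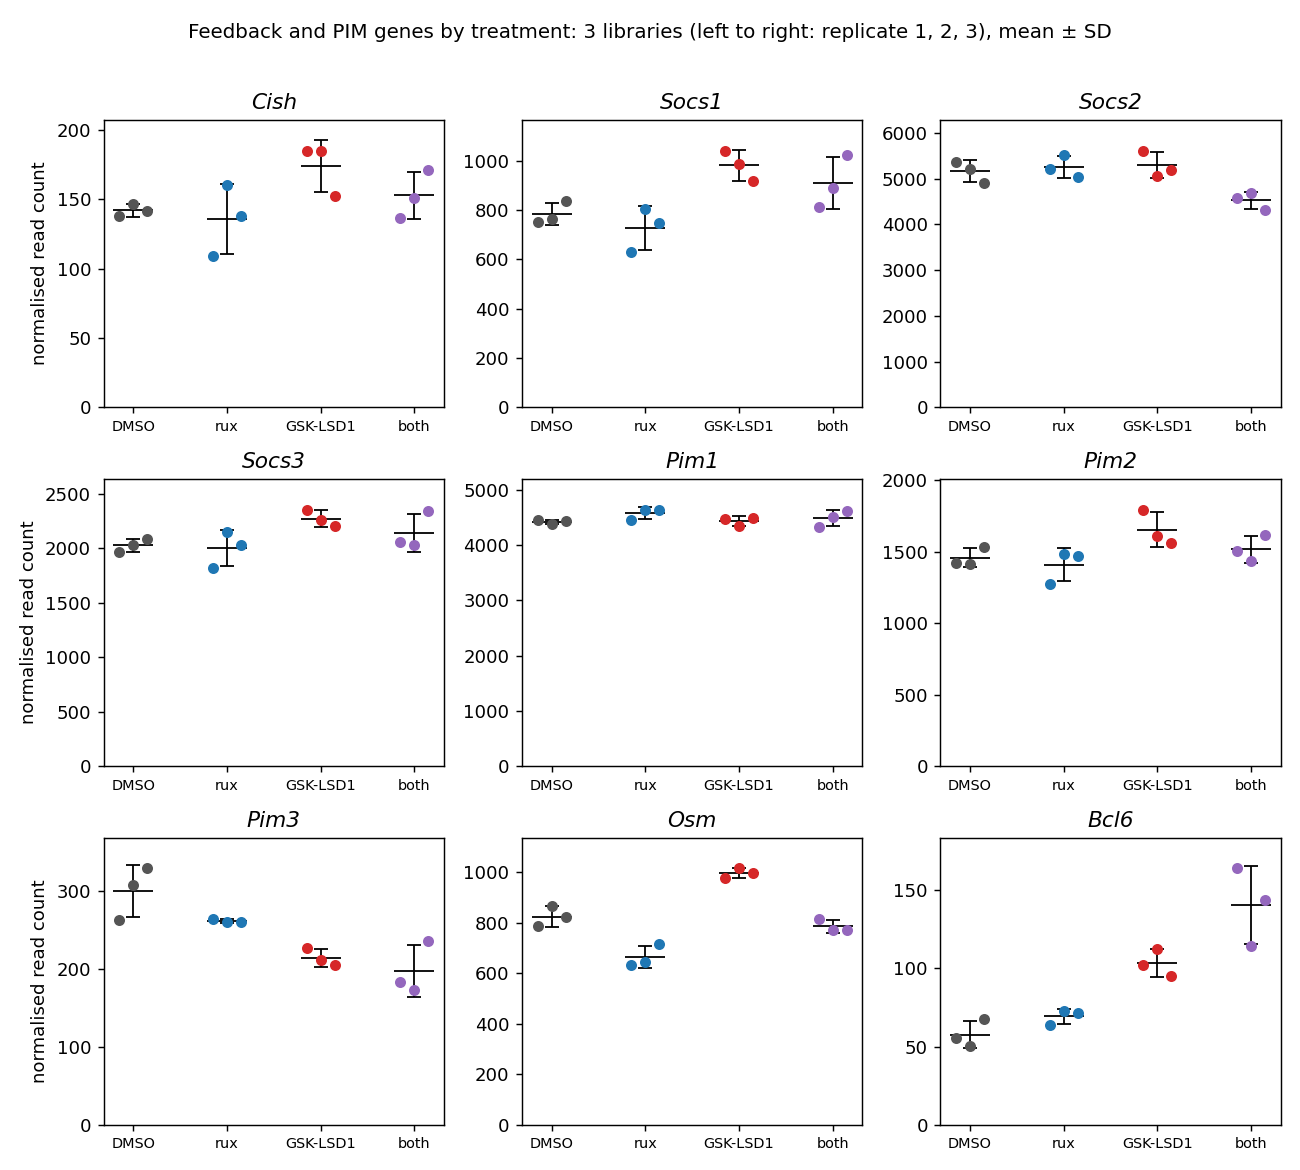
Normalised read count of each of the 9 genes in the 12 libraries (points, replicates 1 to 3 from left to right), with the mean and SD of each treatment (n = 3). Bcl6 rises from 57.7 in DMSO to 140.4 in the combination, Osm is lowest with ruxolitinib and highest with GSK-LSD1, and Pim1 stays between 4336 and 4643 in every library.

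Cish encodes CIS, which competes with STAT5 for docking sites on receptors. The gene lies at chr9:107296026-107302784 on the plus strand of GRCm38 (GENCODE vM21), where an antisense gene and a pseudogene overlap it on the other strand. Whether the counting used strand is not stated in the sources used here, so their reads could be among its values. Cish was at 138, 147 and 142 normalised reads in DMSO, 109, 160 and 138 with ruxolitinib, 185, 185 and 153 with GSK-LSD1 and 137, 151 and 171 in the combination. The GSK-LSD1 libraries lay above all DMSO libraries, whereas the other groups overlapped DMSO. The log2 difference from DMSO was -0.08 ± 0.13 (SE) with ruxolitinib, 0.29 ± 0.13 with GSK-LSD1 and 0.10 ± 0.13 in the combination, and none passed limma's test (adjusted p = 0.7869, 0.1001 and 0.571). With the GC correction the ruxolitinib difference was -0.12 and that of the combination 0.05. Without ruxolitinib replicate 2 and combination replicate 3 they were -0.21 and 0.02, and GSK-LSD1 passed at 0.29 (adjusted p = 0.03918).

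Socs1 encodes a direct inhibitor of JAK kinase activity and lies at chr16:10782240-10785536 on the minus strand. It was at 752, 766 and 837 normalised reads in DMSO, 629, 804 and 749 with ruxolitinib, 1041, 986 and 917 with GSK-LSD1 and 814, 892 and 1023 in the combination. With GSK-LSD1 all 3 libraries were above all DMSO libraries. Socs1 rose with GSK-LSD1 by 0.32 ± 0.09 on the log2 scale (1.25-fold, limma adjusted p = 0.008197). The combination was 0.21 ± 0.09 above DMSO, short of the threshold (limma adjusted p = 0.06491), and one of its libraries lay inside the DMSO range. That difference passed without ruxolitinib replicate 1 (adjusted p = 0.04007), without ruxolitinib replicate 2 (0.03905) and without combination replicate 1 (0.0209). It was 0.11 with the GC correction (adjusted p = 0.1521) and 0.12 without ruxolitinib replicate 2 and combination replicate 3 (0.168). Ruxolitinib alone was -0.12 ± 0.09 from DMSO (limma adjusted p = 0.527), -0.22 with the GC correction (adjusted p = 0.06244) and -0.19 without those 2 libraries (0.1469).

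Socs2 encodes a regulator of growth hormone and cytokine receptors that acts mainly through STAT5. It lies at chr10:95385362-95417180 on the minus strand. Socs2 was at 5371, 5216 and 4900 normalised reads in DMSO, 5201, 5523 and 5046 with ruxolitinib, 5610, 5066 and 5199 with GSK-LSD1 and 4576, 4689 and 4323 in the combination. The 3 combination libraries were below the other 9. Neither drug alone shifted Socs2 measurably, at 0.03 ± 0.06 (95% interval -0.10 to 0.15) for ruxolitinib and 0.04 ± 0.06 (-0.09 to 0.16) for GSK-LSD1 on the log2 scale. In the combination it fell by 0.19 ± 0.06 against DMSO (limma adjusted p = 0.01377) and by 0.21 ± 0.06 against ruxolitinib (0.008273). With the GC correction ruxolitinib was at 0.08 and GSK-LSD1 at 0.06, neither past the test, and without ruxolitinib replicate 2 and combination replicate 3 ruxolitinib was at -0.01. Against DMSO the call for the combination was lost without DMSO replicate 1 (adjusted p = 0.07588). The difference from GSK-LSD1 was -0.22 ± 0.06 (limma adjusted p = 0.0611), and it passed without ruxolitinib replicate 2 (0.02851).

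Socs3 encodes the main inhibitor of signalling through gp130 and the granulocyte colony-stimulating factor receptor. It lies at chr11:117966079-117970047 on the minus strand. Socs3 was at 1968, 2031 and 2082 normalised reads in DMSO, 1822, 2150 and 2034 with ruxolitinib, 2355, 2259 and 2203 with GSK-LSD1 and 2053, 2030 and 2338 in the combination. The GSK-LSD1 libraries were above all DMSO libraries, by 0.16 ± 0.07 on the log2 scale, but the difference stayed short of the threshold (limma adjusted p = 0.06391). It passed without ruxolitinib replicate 1 (adjusted p = 0.04343), ruxolitinib replicate 2 (0.03702) or combination replicate 3 (0.02607). Ruxolitinib was at -0.02 ± 0.07 (95% interval -0.16 to 0.12) and the combination at 0.08 ± 0.07 (-0.06 to 0.21). With the GC correction ruxolitinib was at -0.13 (adjusted p = 0.1552), the combination at -0.02 (0.7683), and GSK-LSD1 passed at 0.12 (0.04666). Without ruxolitinib replicate 2 and combination replicate 3 they were at -0.07, 0.01 and 0.16, and GSK-LSD1 passed (adjusted p = 0.004743).

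Pim1, at chr17:29490753-29496112 on the plus strand, is the PIM gene best known as a STAT target. An antisense gene overlaps it on the other strand, and reads of that gene could be among the Pim1 values. Pim1 was at 4457, 4387 and 4436 normalised reads in DMSO, 4451, 4643 and 4633 with ruxolitinib, 4475, 4338 and 4498 with GSK-LSD1 and 4336, 4517 and 4623 in the combination. All groups overlapped. The 95% intervals of the log2 differences from DMSO were -0.06 to 0.15 for ruxolitinib, -0.10 to 0.11 for GSK-LSD1 and -0.09 to 0.13 for the combination. Signs depended on the processing: with the GC correction the differences were -0.03, -0.04 and -0.06, beside 0.05, 0.003 and 0.02 without it. None passed the test under either setting. Without ruxolitinib replicate 2 and combination replicate 3 the combination was at -0.00028 (adjusted p = 0.9968).

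Pim2 (chrX:7878262-7883432, plus strand) encodes a kinase known for supporting survival of cytokine-deprived blood cells. It was at 1424, 1413 and 1535 normalised reads in DMSO, 1274, 1485 and 1467 with ruxolitinib, 1795, 1610 and 1562 with GSK-LSD1 and 1503, 1433 and 1621 in the combination. The GSK-LSD1 libraries lay above all DMSO libraries. Their log2 difference of 0.18 ± 0.07 had a limma adjusted p of 0.05363. It passed without ruxolitinib replicate 1 (0.03712), ruxolitinib replicate 2 (0.0368), GSK-LSD1 replicate 3 (0.04973) or combination replicate 3 (0.02783). Ruxolitinib was at -0.05 ± 0.07 and the combination at 0.06 ± 0.07. With the GC correction they were at -0.11 (adjusted p = 0.3109) and -0.005 (0.9525), and GSK-LSD1 passed at 0.15 (0.03906). Without ruxolitinib replicate 2 and combination replicate 3 they were at -0.09 and 0.01, and GSK-LSD1 passed at 0.18 (0.008172).

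Pim3 (chr15:88862186-88865726, plus strand), the least expressed PIM gene here, was the PIM gene that passed the test against DMSO. It was at 263, 308 and 329 normalised reads in DMSO, 264, 260 and 260 with ruxolitinib, 227, 211 and 204 with GSK-LSD1 and 183, 173 and 236 in the combination. Both groups that received GSK-LSD1 lay wholly below DMSO, and below ruxolitinib as well. Pim3 fell with GSK-LSD1 by 0.48 ± 0.11 on the log2 scale (0.717-fold, limma adjusted p = 0.001891) and in the combination by 0.61 ± 0.11 (0.655-fold, 0.000124). Ruxolitinib alone was at -0.19 ± 0.11 (limma adjusted p = 0.369), and at -0.33 with the GC correction (0.06245). Pim3 has the highest GC content of the 9 genes.

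Osm (chr11:4236420-4241026, plus strand) was the one gene of the 9 that passed the test against DMSO with ruxolitinib alone. With GSK-LSD1 it passed in the opposite direction. It was at 785, 864 and 823 normalised reads in DMSO and at 634, 643 and 714 with ruxolitinib. With GSK-LSD1 it was at 978, 1014 and 996, and in the combination at 814, 770 and 772. The ruxolitinib libraries lay below all DMSO libraries, the GSK-LSD1 libraries lay above them, and the combination overlapped DMSO. Osm fell with ruxolitinib by 0.31 ± 0.06 on the log2 scale (0.805-fold, limma adjusted p = 0.01651). It rose with GSK-LSD1 by 0.27 ± 0.06 (1.21-fold, limma adjusted p = 0.002623).

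With both drugs Osm was at -0.07 ± 0.06 from DMSO (limma adjusted p = 0.418; -0.13 with the GC correction, 0.1118), below GSK-LSD1 alone by -0.34 ± 0.06 (0.004976) and above ruxolitinib alone by 0.24 ± 0.06 (0.006529). The fall with ruxolitinib was -0.37 with the GC correction (adjusted p = 0.002682). The call was lost without DMSO replicate 2 (0.09407), DMSO replicate 3 (0.08367), ruxolitinib replicate 1 (0.05261) or ruxolitinib replicate 2 (0.06582), and the log2 change was between -0.37 and -0.28 under all 24 alternatives.

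Bcl6 (chr16:23965052-23988852, minus strand) had the widest range of the 9 genes relative to its level. A second gene overlaps it on the other strand. Whether the counting used strand is not stated, so reads of that gene could be among the Bcl6 values. Bcl6 was at 55.6, 50.0 and 67.3 normalised reads in DMSO and at 63.7, 72.9 and 71.1 with ruxolitinib. With GSK-LSD1 it was at 102, 112 and 94.7, and in the combination at 164, 114 and 143. The groups stepped up in that order, and ruxolitinib and DMSO overlapped. Bcl6 rose 1.78-fold with GSK-LSD1 (log2 0.83 ± 0.15, limma adjusted p = 0.0002128) and 2.40-fold in the combination (1.27 ± 0.15, 8.451e-07).

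Against ruxolitinib alone the combination was 1.00 ± 0.15 higher for Bcl6 (limma adjusted p = 2.835e-05). Ruxolitinib alone was at 0.27 ± 0.15 from DMSO (limma adjusted p = 0.3606), and the combination was 0.43 ± 0.15 above GSK-LSD1 alone (0.2022). Counting error alone gives Bcl6 a coefficient of variation of 13.2% in DMSO if steps are reads, the highest of the 9 genes, so its ruxolitinib difference is the least precise.

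**Figure D3:**
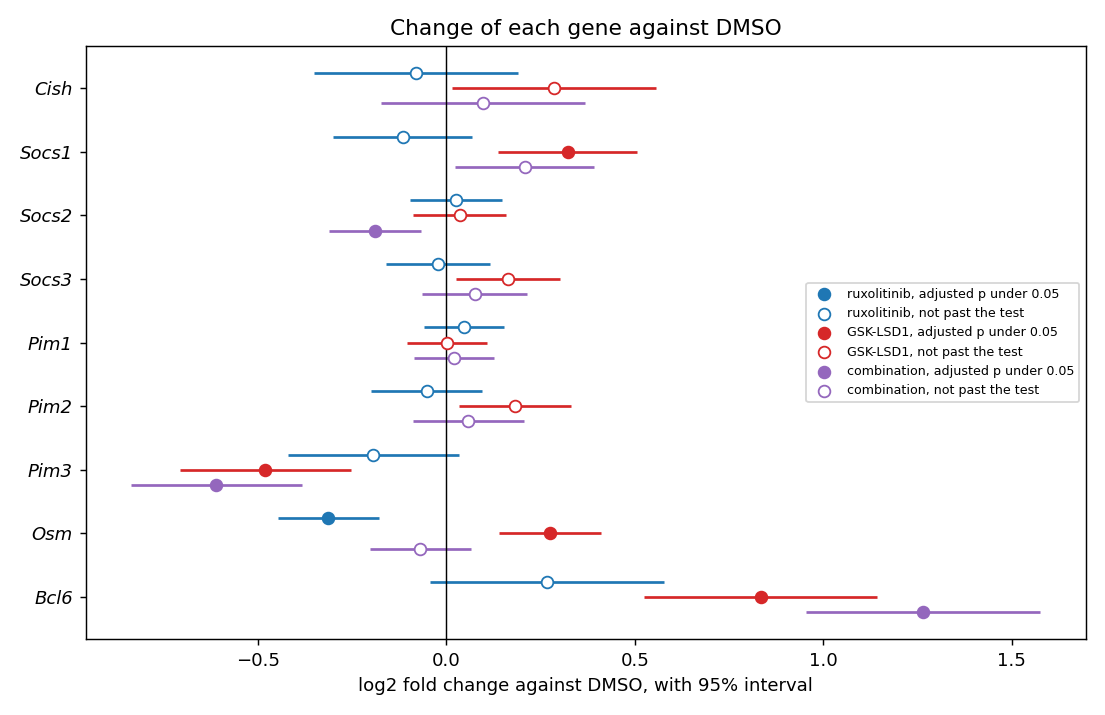
Log2 fold change of each gene against DMSO with its 95% interval for ruxolitinib, GSK-LSD1 and the combination; filled points have an adjusted p under 0.05. Filled points are Osm for ruxolitinib, Socs1, Osm, Bcl6 and Pim3 for GSK-LSD1, and Bcl6, Pim3 and Socs2 for the combination.

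The comparison with ruxolitinib alone asks how the 9 genes responded to the drug at this dose and time. JAK activity and STAT phosphorylation were not measured, so it cannot show how far these genes depended on JAK. Of the 9 genes, 0 rose and 1 (Osm) fell by limma's test at an adjusted p under 0.05, and 1 had an unadjusted p under 0.05. Over all 11484 tested genes 1.00% rose and 0.627% fell, and 17.5% had an unadjusted p under 0.05. The median log2 difference was -0.05 for the 9 genes and -0.001 for all genes. Over tested genes the ruxolitinib difference correlated with GC content (Spearman's rho = 0.415, a description across genes). With the GC correction the median of the 9 genes was -0.12, with 7 of them below 0, beside -0.006 for all genes. The correction takes out every GC trend of a library, including any that the drug itself brought about. Of the 9 genes 8 lay above the median GC content, and the correction lowered the ruxolitinib difference of all but Socs2.

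With GSK-LSD1 alone, 3 of the 9 rose (Socs1, Osm and Bcl6) and 1 fell (Pim3), where over all genes 17.0% rose and 15.5% fell. At an unadjusted p under 0.05 the number was 7, which adds Cish, Socs3 and Pim2, and 41.9% of all genes passed that threshold. The 7 genes also passed when only the libraries of DMSO and GSK-LSD1 were fitted and when ruxolitinib replicate 2 and combination replicate 3 were left out together, settings in which the share of all genes called rose from 32.5% to 43.4% and 42.5%. The median log2 difference was 0.18 for the 9 genes and -0.005 for all genes.

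In the combination, 1 gene rose (Bcl6) and 2 fell (Pim3 and Socs2) against DMSO, where 20.5% of all genes rose and 21.8% fell. Adding GSK-LSD1 to ruxolitinib raised Socs1 (0.32 ± 0.09, limma adjusted p = 0.008166), Osm and Bcl6 and lowered Socs2 and Pim3 (-0.42 ± 0.11, 0.005887), 3 and 2 of the 9, beside 16.0% and 15.6% of all genes. The call for Socs1 was lost without ruxolitinib replicate 1 (adjusted p = 0.06874). Adding ruxolitinib to GSK-LSD1 lowered 1 gene (Osm) and raised 0, beside 0.348% and 1.05% of all genes, and 3 genes had an unadjusted p under 0.05, as did 12.3% of all genes.

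Between the single drugs, 6 of the 9 genes were higher with GSK-LSD1 than with ruxolitinib and 0 were lower, where over all genes 13.6% were higher and 11.8% lower. The largest of these were Osm (0.59 ± 0.06, limma adjusted p = 6.747e-07), Bcl6 (0.57 ± 0.15, 0.007742) and Socs1 (0.44 ± 0.09, 0.0009509). Cish (0.37 ± 0.13, 0.04314), Pim2 (0.23 ± 0.07, 0.01908) and Socs3 (0.19 ± 0.07, 0.04528) lay nearer the threshold. Without ruxolitinib replicate 1 the adjusted p was 0.2352 for Cish, 0.1152 for Pim2 and 0.2183 for Socs3, and Osm, Bcl6 and Socs1 were the 3 genes past the test. The log2 difference was then 0.22 for Cish, 0.16 for Pim2 and 0.12 for Socs3. Without GSK-LSD1 replicate 1 the adjusted p was 0.1275, 0.1086 and 0.1386. Cish and Socs3 each passed in 13 of 24 alternatives. Leaving out DMSO replicates 1, 2 or 3 gave adjusted p-values of 0.05364, 0.05275 and 0.05397 for Cish and 0.05834, 0.06014 and 0.05827 for Socs3. Without ruxolitinib replicate 3 or GSK-LSD1 replicate 2 they were 0.06118 and 0.1525 for Cish and 0.0582 and 0.1039 for Socs3. Cish also missed the threshold without combination replicate 2 (0.05065), and Socs3 without GSK-LSD1 replicate 3 (0.07265). Pim3 was at -0.29 ± 0.11 between the single drugs (limma adjusted p = 0.05764), and it passed without combination replicate 2 (0.0495) or combination replicate 3 (0.01893).

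The interaction asks whether both drugs together differed from the sum of their single effects on the log2 scale. By limma 0 of the 9 genes passed, beside 0.00871% of all genes (1 gene), and 1 of the 9 had an unadjusted p under 0.05, as did 4.65% of all genes. That gene was Socs2, with -0.25 ± 0.08 (unadjusted p = 0.006847, adjusted p = 0.9068): the single effects summed to 0.06 and the combination was at -0.19. For Pim3 the sum was -0.67 and the combination -0.61, and for Bcl6 they were 1.10 and 1.27. For Osm the opposing single effects summed to -0.04, and the combination was at -0.07. The other differences from the sum lay between -0.11 (Cish) and 0.16 (Bcl6), with 95% intervals of -0.49 to 0.28 and -0.28 to 0.60, so departures of that size were not measurable here. Asked for any difference among the 4 treatments, 6 of the 9 passed limma's F-test, beside 42.8% of all genes. These were Bcl6 (adjusted p = 2.195e-06), Osm (3.002e-06), Pim3 (0.0003614), Socs1 (0.001405), Socs2 (0.0101) and Pim2 (0.04886), whereas Cish (0.1088), Socs3 (0.09064) and Pim1 (0.8224) did not. The number was 5 to 8 over 23 alternatives: the first 5 named passed in all of them, Pim2 in 13, Socs3 in 7 and Cish in 3. The share of all genes called in these alternatives was 27.0% to 52.3%. Pim2 missed the threshold without DMSO replicates 1, 2 or 3 (adjusted p = 0.08532, 0.08292 and 0.05204), without ruxolitinib replicate 1 (0.1018), without GSK-LSD1 replicates 1, 2 or 3 (0.2314, 0.08891 and 0.05089) and without combination replicate 1 (0.05675). Without ruxolitinib replicate 2, Cish (0.02625) and Socs3 (0.02557) passed, and Socs3 also without combination replicate 3 (0.03216).

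**Figure D4:**
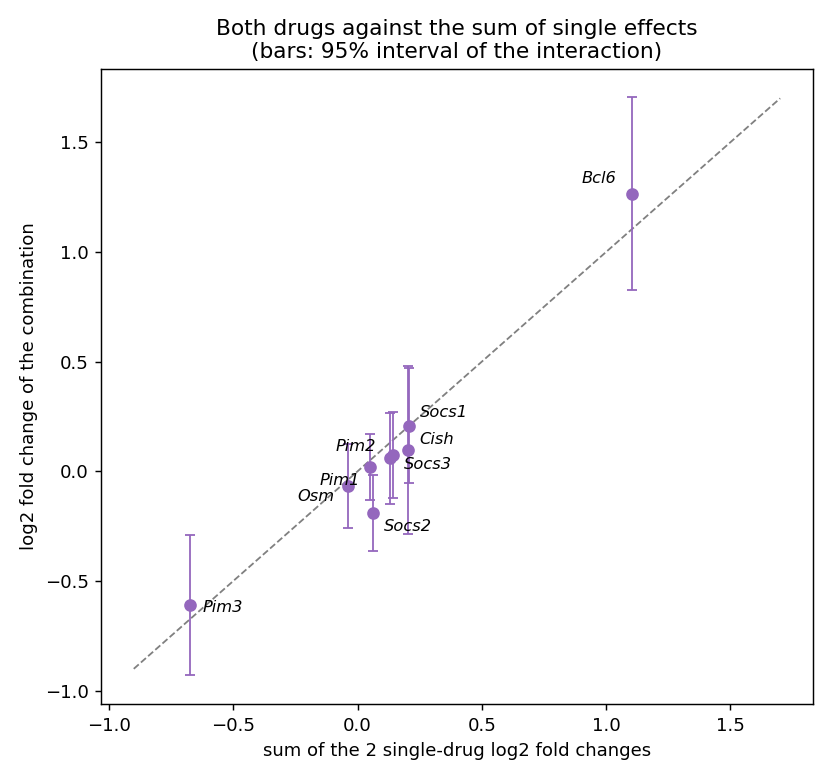
Log2 fold change of the combination against DMSO (vertical axis) plotted against the sum of the 2 single-drug log2 fold changes (horizontal axis) for the 9 genes, with the dashed line at equality and bars for the 95% interval of the interaction. Socs2 lies farthest below the line, at 0.06 and -0.19, and its bar does not reach the line.

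Among other SOCS proteins and the ubiquitin ligase partners of the family, 8 of 10 listed symbols were in the table and were tested. They were Socs4, Socs5, Socs6, Socs7, Cul5, Rnf7 and the elongin genes under their older names Tceb1 and Tceb2. With ruxolitinib 0 rose and 0 fell by limma, with GSK-LSD1 0 rose and 2 fell, and in the combination 0 rose and 5 fell. Over all genes 1.00% rose and 0.627% fell with ruxolitinib, and 15.5% fell with GSK-LSD1 and 21.8% in the combination. The 0 of 8 with ruxolitinib and the 2 of 8 with GSK-LSD1 were thus near the shares of all genes. The list's median log2 difference was -0.13, -0.14 and -0.27, beside -0.001, -0.005 and -0.010 for all genes. Tceb1, the elongin C subunit that joins the SOCS box to the ligase, fell by 0.30 ± 0.08 with GSK-LSD1 (limma adjusted p = 0.007657) and by 0.39 ± 0.08 in the combination (0.0005583). Socs5 fell by 0.23 ± 0.08 (0.03044) and 0.36 ± 0.08 (0.000785), and Socs4 in the combination by 0.41 ± 0.11 (0.004348).

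Of 11 JAK and STAT genes, 0 changed with ruxolitinib, 4 rose and 1 fell with GSK-LSD1, and 6 rose and 1 fell in the combination. Over all genes 17.0% rose and 15.5% fell with GSK-LSD1, and 20.5% rose and 21.8% fell in the combination. With ruxolitinib 1.00% of all genes rose and 0.627% fell, so 0 of 11 was near those shares. Their median log2 difference was -0.002, 0.14 and 0.18. Stat5b, which encodes an activator of Cish and Socs2, rose by 0.35 ± 0.05 with GSK-LSD1 (limma adjusted p = 4.415e-05) and by 0.43 ± 0.05 in the combination (2.202e-06). Stat3 rose by 0.20 ± 0.06 in both (0.009286 and 0.006222), and the kinase gene Tyk2 fell by 0.21 ± 0.06 and 0.23 ± 0.06 (0.00826 and 0.00361). Of 13 other genes that restrain the pathway, 0 changed with ruxolitinib and 4 rose and 0 fell both with GSK-LSD1 and in the combination, with list medians of -0.04, 0.08 and 0.03, where 17.0% and 20.5% of all genes rose. Ptpn6, the phosphatase SHP-1, rose by 0.47 ± 0.06 with GSK-LSD1 (limma adjusted p = 1.833e-06) and by 0.75 ± 0.06 in the combination (1.052e-09). Pias3, an inhibitor of STAT3, rose by 0.61 ± 0.10 and 0.71 ± 0.10 (5.881e-05 and 5.185e-06). Ptprc, the phosphatase CD45, rose by 0.49 ± 0.08 and 0.51 ± 0.08 (7.851e-05 and 2.532e-05).

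Other genes known as STAT3 or STAT5 targets numbered 19 tested of 20 listed. With ruxolitinib 0 rose and 1 fell, with GSK-LSD1 2 rose and 4 fell, and in the combination 2 rose and 6 fell, with list medians of -0.07, 0.005 and -0.11. Over all genes 17.0% rose and 15.5% fell with GSK-LSD1, and 20.5% and 21.8% in the combination, so the GSK-LSD1 counts were near those shares. With ruxolitinib 1.00% of all genes rose and 0.627% fell. Il2ra, the alpha chain of the interleukin-2 receptor, fell by 0.47 ± 0.09 with ruxolitinib (limma adjusted p = 0.008743) and rose by 0.31 ± 0.09 with GSK-LSD1 (0.009129), the same pair of directions as Osm. Myc fell by 0.35 ± 0.07 with GSK-LSD1 (limma adjusted p = 0.0006341) and by 0.32 ± 0.07 in the combination (0.001061). Ccnd3, a G1 cyclin, fell by 0.30 ± 0.07 and 0.35 ± 0.07 (0.001354 and 0.0002137), whereas Lcn2, a neutrophil granule protein, rose in the combination by 0.81 ± 0.11 (5.731e-06).

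Of 14 other genes for oncostatin M's family of ligands and receptors, 7 were tested. With ruxolitinib 0 changed, where 1.00% of all genes rose and 0.627% fell. With GSK-LSD1 and in the combination 3 rose and 0 fell, where 17.0% of all genes rose with GSK-LSD1 and 20.5% in the combination. The list medians were -0.04 with ruxolitinib, 0.53 with GSK-LSD1 and 0.45 in the combination. Il6st, the shared receptor chain gp130, rose by 1.07 ± 0.09 with GSK-LSD1 (limma adjusted p = 1.272e-08) and by 1.17 ± 0.09 in the combination (2.084e-09). Il6ra rose by 0.67 ± 0.13 and 1.21 ± 0.13 (0.0004287 and 2.401e-07) and Il6 by 0.70 ± 0.13 and 0.45 ± 0.13 (0.0004281 and 0.01036). The oncostatin M receptor gene Osmr was among the genes too low to be tested.

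Of 14 listed corepressors and repressed targets of BCL6, 13 were tested. With ruxolitinib 0 changed, with GSK-LSD1 2 rose and 1 fell, and in the combination 2 rose and 3 fell, with list medians of -0.05, 0.07 and 0.05. These counts were near or below the shares of all genes, 17.0% rising and 15.5% falling with GSK-LSD1 and 20.5% and 21.8% in the combination. With ruxolitinib those shares were 1.00% and 0.627%. Cd69, an early activation antigen, fell by 0.89 ± 0.14 with GSK-LSD1 (limma adjusted p = 5.98e-05) and by 0.68 ± 0.14 in the combination (0.0005327). Id2, an inhibitor of E proteins, rose by 0.28 ± 0.08 with GSK-LSD1 (0.01191), and Hdac3, a corepressor deacetylase, fell by 0.17 ± 0.06 in the combination (0.0285). Cxcr4, a chemokine receptor gene that stands in this list and among the PIM substrates, rose by 0.53 ± 0.07 and 0.88 ± 0.07 (6.588e-06 and 2.385e-09).

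Of 11 genes for substrates of PIM kinases, Myc and Cxcr4 among them, 0 changed with ruxolitinib, 2 rose and 3 fell with GSK-LSD1, and 2 rose and 2 fell in the combination, with list medians of 0.03, -0.006 and -0.05. The shares of all genes were 17.0% rising and 15.5% falling with GSK-LSD1 and 20.5% and 21.8% in the combination, so the numbers that rose were near them. With ruxolitinib those shares were 1.00% and 0.627%, so 0 of 11 was near them too. Cdc25a, a cell cycle phosphatase, fell by 0.35 ± 0.06 with GSK-LSD1 (limma adjusted p = 0.0002197) and by 0.49 ± 0.06 in the combination (2.722e-06). Cdkn1b, the cell cycle inhibitor p27, rose in the combination by 0.46 ± 0.07 (3.272e-05).

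Over the 12 libraries, the genes whose log2 values ran closest to those of Osm were Il2ra (Pearson r = 0.95) and Cxadr (0.94). For Bcl6 they were Arhgef3 and N4bp2l1 (0.97 each), and for Pim3 Immt (0.97) and Srprb (0.96). Socs1 ran closest to Mboat7 and to Socs3 (0.94 each), and Pim2 to Socs3 (0.94) and Ier3 (0.93). For Socs2 the closest were Slc10a3 (0.90) and Hacd2 (0.86). Each pair shares the same 12 libraries, their scaling and, for Socs1, Socs3 and Pim2, the shifts of ruxolitinib replicates 1 and 2, so these values describe likeness only.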

How the data were processed

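The values deposited by the authors are a normalised signal for each gene: counts of reads scaled with a size factor for every library, plus a constant of 1e-05, as the steps between the values show. The submitters' processing notes name STAR, DESeq2, mm10 and GRCm38, without versions or roles; strandedness and the counting annotation are not given in the sources used here. The constant was taken off before use. Whole reads were not taken as recovered, so no count model was run.

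Testing was limited to the 11484 of 24411 genes whose mean value was at least 10. Treatment means were modelled on log2(value + 1) with limma 3.58.1 (R 4.3.3), with a variance trend and 8 residual degrees of freedom. Benjamini-Hochberg adjustment ran over every tested gene, and an adjusted p under 0.05 passed. Fold changes are on the log2(value + 1) scale, which understates the change of low genes. All comparisons with DMSO share its 3 libraries.

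The 9 genes and 8 pathway lists (100 genes) were chosen with earlier results of these data known. Named from each list were up to 3 genes with the smallest p among those past the test in each comparison with DMSO, and as likeness the 2 best correlated genes of each gene that passed the F-test. Csf2rb and Csf2rb2 are near-identical copies and their values are uncertain. Positions come from GENCODE vM21, and promoter windows from RefSeq. The fit was tested on simulated data, and 24 alternatives were run (other pseudocounts, filters, scalings, a GC correction, a replicate block, library weights, fewer treatments and left-out libraries). Replicate numbers were not used to pair libraries in the main fit, and the labels do not say whether they do. The erythroid marker list is not reported here in full.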

Additional observations from a re-analysis of the deposited data

How the results depend on the processing

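Of the log2 differences of the 9 genes under the alternatives, 1389 kept their direction and their side of the threshold, 36 newly passed it, 32 no longer passed it and 46 changed sign, each of the last below the threshold on both sides. The number of the 9 genes that passed against DMSO with ruxolitinib was 1, and 0 to 1 when a library was left out (1.63%, and 0.278% to 4.81%, of all genes). With GSK-LSD1 it was 4, and 7 with library weights, with only the treatments compared, or without ruxolitinib 2 and combination 3, where the share of all genes called was 32.5%, 44.7%, 43.4% and 42.5%. Between the combination and GSK-LSD1 it was 1, but 2 with library weights or without ruxolitinib 2 and combination 3, and 1 to 2 when a library was left out, with 1.40%, 3.72% and 2.36% of all genes called in the first 3 of these fits. Between GSK-LSD1 and ruxolitinib it was 6, and 3 to 7 when a library was left out (25.4%, and 17.2% to 30.7%, of all genes). The fall of Socs2 in the combination also missed the threshold under quantile normalisation (adjusted p = 0.05721) and under the replicate block with GC correction (0.0513). The cause of these changes was not tested. Same-numbered libraries of different groups had correlations of their deviations between -0.148 and 0.150, and 4 of 12 libraries correlated best with their own number. No pairing by number was thus seen in these correlations. They cannot show whether same-numbered libraries shared a culture or a day, because the GC trends of single libraries enter the deviations. With the replicate block the numbers of the 9 genes past the test were 1, 4 and 3 against DMSO (ruxolitinib, GSK-LSD1, combination). The shares of all genes were 0.975%, 30.3% and 40.6%. For the combination the number was 5 against ruxolitinib and 1 against GSK-LSD1 (29.4% and 1.21% of all genes). Between the single drugs it was 5 (23.0%), for the interaction 0 (0%) and for the F-test 5 (39.6%). TMM scaling, quantile normalisation and the GC correction moved the median of all genes by under 0.1 on the log2 scale. Counting error is largest for Bcl6 and Cish (coefficients of variation of 13.2% and 8.39% in DMSO if steps are reads).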

Other observations

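Of 12 listed receptor genes of blood cells that lie upstream of STAT5, 9 were tested; 2 rose and 0 fell with ruxolitinib, and 7 rose and 0 fell both with GSK-LSD1 and in the combination, with list medians of 0.11, 0.42 and 0.58 on the log2 scale. Over all genes 1.00%, 17.0% and 20.5% rose. The list is mixed: Il2rg and Il7r encode chains that signal through JAK1 and JAK3, and Kit encodes a receptor tyrosine kinase. Csf3r, which could include reads of the retroviral copy, was at 0.01 ± 0.09 with GSK-LSD1 (limma adjusted p = 0.9318), and Epor, the erythropoietin receptor, at -0.61 ± 0.24 (0.0509). Il2rg, the common gamma chain, rose by 0.80 ± 0.07 with GSK-LSD1 (limma adjusted p = 1.08e-08) and by 0.85 ± 0.07 in the combination (2.729e-09). Csf2rb2, whose reads cannot be cleanly told from those of its near copy Csf2rb, rose by 0.42 ± 0.06 and 0.44 ± 0.06 (2.839e-05 and 9.955e-06). Kit, the stem cell factor receptor, rose by 1.16 ± 0.21 and 1.39 ± 0.21 (0.000198 and 1.391e-05). Il3ra, the interleukin-3 receptor alpha chain, rose by 0.37 ± 0.09 with ruxolitinib (0.04862), and by 0.72 ± 0.09 in the combination (2.701e-06). Csf2ra, the granulocyte-macrophage colony-stimulating factor receptor alpha chain, rose by 0.45 ± 0.10 with ruxolitinib (0.02616). Il3ra and Csf2ra were also among the 7 genes that rose with GSK-LSD1. Mean values of Il3ra were 300 in DMSO, 389 with ruxolitinib, 417 with GSK-LSD1 and 497 in the combination. Those of Csf2ra were 245, 335, 298 and 369 in the same order.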
